A study of Homo sapiens with 4 samples.

Results

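Translation initiation factors bring the initiator tRNA, the small ribosomal subunit and a capped mRNA together at a start codon. The eIF4F complex binds the cap (eIF4E), bridges it to the ribosome (eIF4G) and unwinds the leader (eIF4A), eIF3 holds the small subunit, and eIF2, recharged by eIF2B, delivers the initiator tRNA. The 4E-BPs are small proteins that bind eIF4E and keep it from eIF4G until the kinase complex mTORC1 phosphorylates them, and EIF4EBP1 is known as a target of the stress transcription factor ATF4. The genes described here are the protein-coding genes whose symbol begins with EIF and a digit from 1 to 6, the 4E-BPs included. Of 56 such genes listed, 5 were left aside by the rule (the 4 kinases that phosphorylate eIF2-alpha and EIF2S1, which encodes eIF2-alpha), and EIF1AY and EIF2S3B did not reach 10 counts in 2 of the libraries. This left 49 of the 20263 genes in the tables, and all 49 were among the 14062 genes tested.

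RNA was sequenced from HCT116, an established human colorectal carcinoma line labelled as wild type, in 2 groups of 2 libraries. One group had received 30 µM HJ-23, a compound the submitters describe as derived from piperine, for 24 hours, and the other 0.1% DMSO, the solvent, for 24 hours. The samples titled HJ-23 carry the name HJ-25 in their treatment field, and the title is followed here. Nothing in the labels states that libraries of a group stem from different cultures, so each p-value measures the spread between libraries, which may be technical. Total counts ran from 29769568 to 34831207 per library. HJ-23 replicate 2 stood apart: by the chi-square of the counts per degree of freedom, HJ-23 replicate 1 was nearer to the DMSO libraries (57.4 and 66.8) than to HJ-23 replicate 2 (70.7), which was at 88.2 and 139 from DMSO. Values without 1 library are therefore given for some genes, and the absence of such a value does not mean that a gene was stable. Of 10 markers of colorectal epithelium, 5 (EPCAM, KRT8, KRT18, CDH1 and CDX2) were at 1 CPM or more in every library, while CDX1 had no count and VIL1, LGALS4, CEACAM5 and KRT20 were under 1 CPM. Their summed level was 2578 to 2795 CPM in DMSO and 2715 and 3608 CPM in HJ-23. Of 10 markers of fibroblasts, endothelium, leukocytes and hepatocytes, COL1A1 and CD68 were at 1 CPM or more in every library, 4 had no count, and the summed level was 96.9 to 105 CPM in DMSO and 97.3 and 113 CPM in HJ-23. Fewer cells and less RNA per cell cannot be told apart in such samples. Positive fold changes mean a higher level with HJ-23. Values in log2 units are given ± their standard error. CPM are counts scaled to the TMM library size, which compare a gene between libraries and not genes of different length with each other.

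No initiation factor gene passed the test. Over all genes, edgeR's quasi-likelihood test called 0.0853% (0.0569% as higher with the compound, 0.0284% as lower) under an adjusted p of 0.05, and it called 0 of the 49 members. The smallest adjusted p of a member was 0.218 (edgeR), that of EIF3G. At an unadjusted p below 0.05, 5 members were higher (EIF3G, EIF4EBP1, EIF2S2, EIF4G1 and EIF3B), where 6.77% of all genes were, and 4 were lower (EIF4G3, EIF3L, EIF4A3 and EIF4B), where 5.25% of all genes were. Together they made 18.4% of members, against 12.0% of all genes. The counts of higher and of lower members both fell without DMSO replicate 1, DMSO replicate 2 or HJ-23 replicate 2. Both rose without HJ-23 replicate 1, and the count over all genes moved the same way each time. Each of these fits left 1 library in a group. With total counts in place of TMM scaling, 6 were higher and 1 lower. DESeq2 called 2.31% of genes (1.19% higher, 1.11% lower), and among the members EIF3G alone, as higher (adjusted p = 0.00766, DESeq2).

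Fold changes of the members were small. Their median was -0.05, against 0.01 over all genes tested, and turned positive without DMSO replicate 2 (0.04) or HJ-23 replicate 2 (0.01) and with a correction for GC content and length (0.05). There were 24 positive and 25 negative values, from -0.60 (EIF4G3) to 0.72 (EIF3G). A difference of 1.5-fold or more was seen in 3 members (EIF3G, EIF4EBP1 and EIF4G3) and in 12.3% of all genes. Without overlap between groups, HJ-23 was higher for 12 members (24.8% of all genes did) and lower for 13 (21.2% of all genes), which makes 51.0% of members and 46.0% of all genes. Summed over the 49 genes, the level was 9033 and 9648 CPM in the DMSO libraries and 9459 and 9392 CPM in the HJ-23 libraries, so the totals of the groups overlapped.

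**Figure D1:**
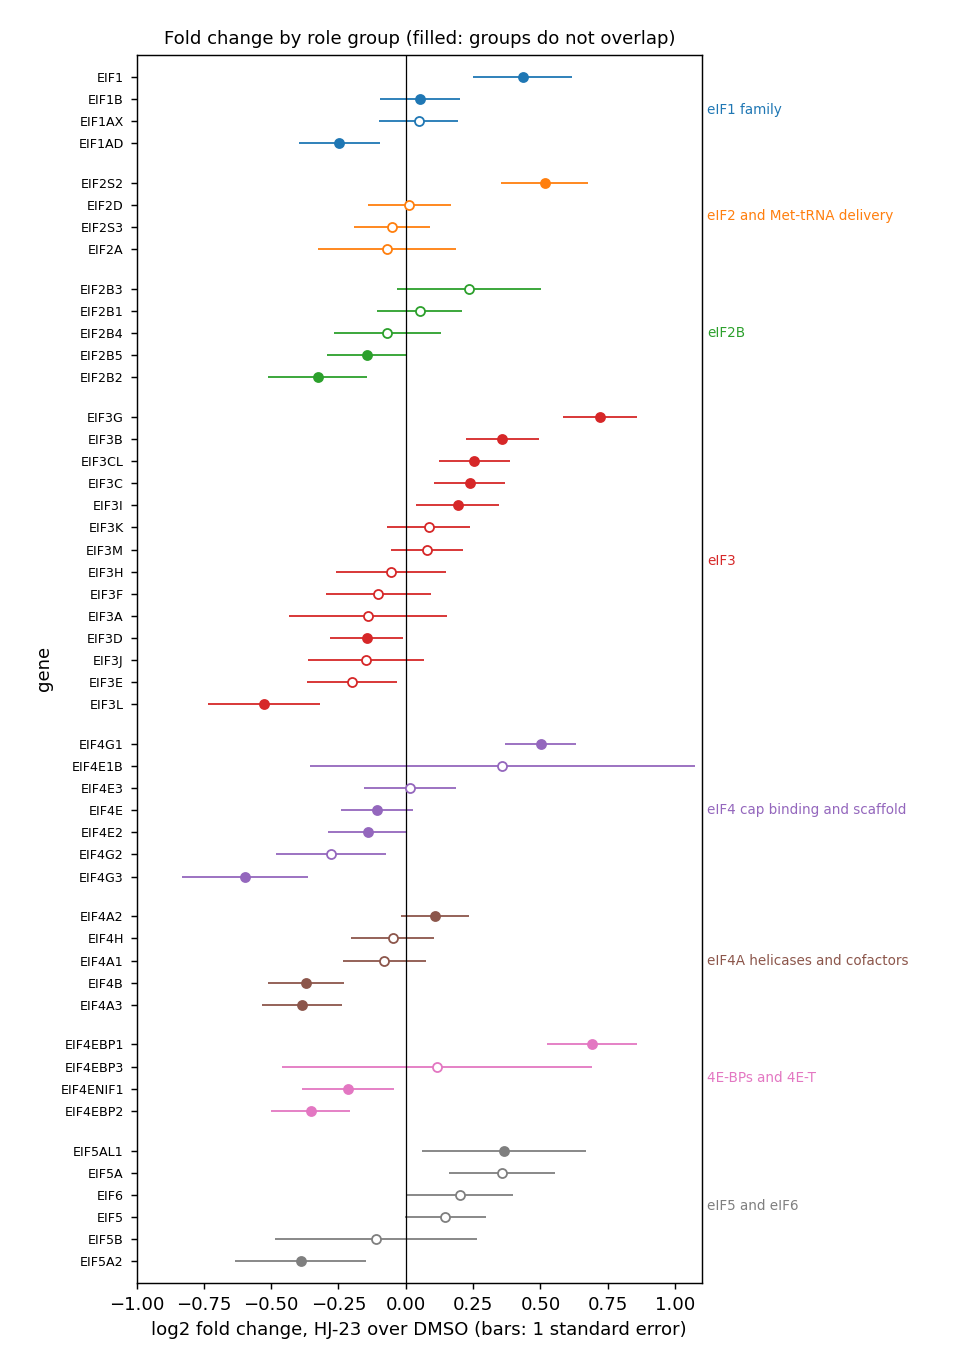
Log2 fold change of HJ-23 over DMSO (horizontal axis) for each of the 49 genes, ordered within role groups, with bars of 1 standard error; filled points are genes whose groups do not overlap. EIF3G (0.72) and EIF4EBP1 (0.69) lie farthest to the right and EIF4G3 (-0.60) and EIF3L (-0.53) farthest to the left, and each role group has members on both sides of 0.

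The 4E-BPs did not share a direction. EIF4EBP1, the family member best known as an mTORC1 substrate, was at 79.4 and 72.01 CPM in DMSO replicates 1 and 2 and at 108 and 136 CPM in HJ-23 replicates 1 and 2. Its groups did not overlap, and the mean went from 75.7 ± 5.22 to 122.3 ± 19.7 CPM (SD, n = 2). The difference, 0.69 ± 0.17 log2 units, did not pass with edgeR (adjusted p = 0.270) or DESeq2 (adjusted p = 0.0531), and it ranged from 0.49 to 0.83 when 1 library was left out. EIF4EBP2, which encodes a second repressor of the same kind, was at 135 and 144 CPM in DMSO and at 118 and 101 CPM in HJ-23. Here both HJ-23 libraries lay below both DMSO libraries (-0.35 ± 0.15 log2 units, edgeR adjusted p of 0.417), and with a correction for GC content and transcript length the value was -0.12. EIF4EBP3 was close to the lower limit of these libraries, with 17 and 15 counts in DMSO and 11 and 29 in HJ-23, and its groups overlapped. Its single gene model overlaps the readthrough gene ANKHD1-EIF4EBP3, which had 1768 and 2664 counts in DMSO and 2000 and 751 in HJ-23, so that counts of either gene are uncertain. Without HJ-23 replicate 2 the log2 fold change of EIF4EBP3 was -0.79 in place of 0.12. EIF4ENIF1 encodes 4E-T, an eIF4E-binding transport protein of processing bodies, and had 22.3 and 24.9 CPM in DMSO and 21.6 and 19.1 in HJ-23.

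Per length, EIF4EBP1 was the most abundant 4E-BP mRNA. With CPM divided by the gene's median transcript length and rescaled per library, EIF4EBP1 stood at 83.4 and EIF4EBP2 at 18.2 in DMSO. The ratio of EIF4EBP1 to EIF4EBP2 on this scale was 4.96 and 4.23 in DMSO and 7.80 and 11.4 in HJ-23. With the longest transcript as the length, the ratio was 4.17 and 3.55 in DMSO and 6.56 and 9.57 in HJ-23. Both HJ-23 libraries had a higher ratio than both DMSO libraries. The choice of length cannot change this order, because it scales the ratio by the same factor in every library. The order also follows from the genes taken singly, since HJ-23 lay above DMSO for EIF4EBP1 and below it for EIF4EBP2 without overlap. It is therefore no separate observation. The genes also differ in GC content, 62.0% for EIF4EBP1 and 43.7% for EIF4EBP2. With the correction for GC content and length, their log2 fold changes went from 0.69 and -0.35 to 0.48 and -0.12. This ratio was chosen after its values were seen and was not tested.

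**Figure D2:**
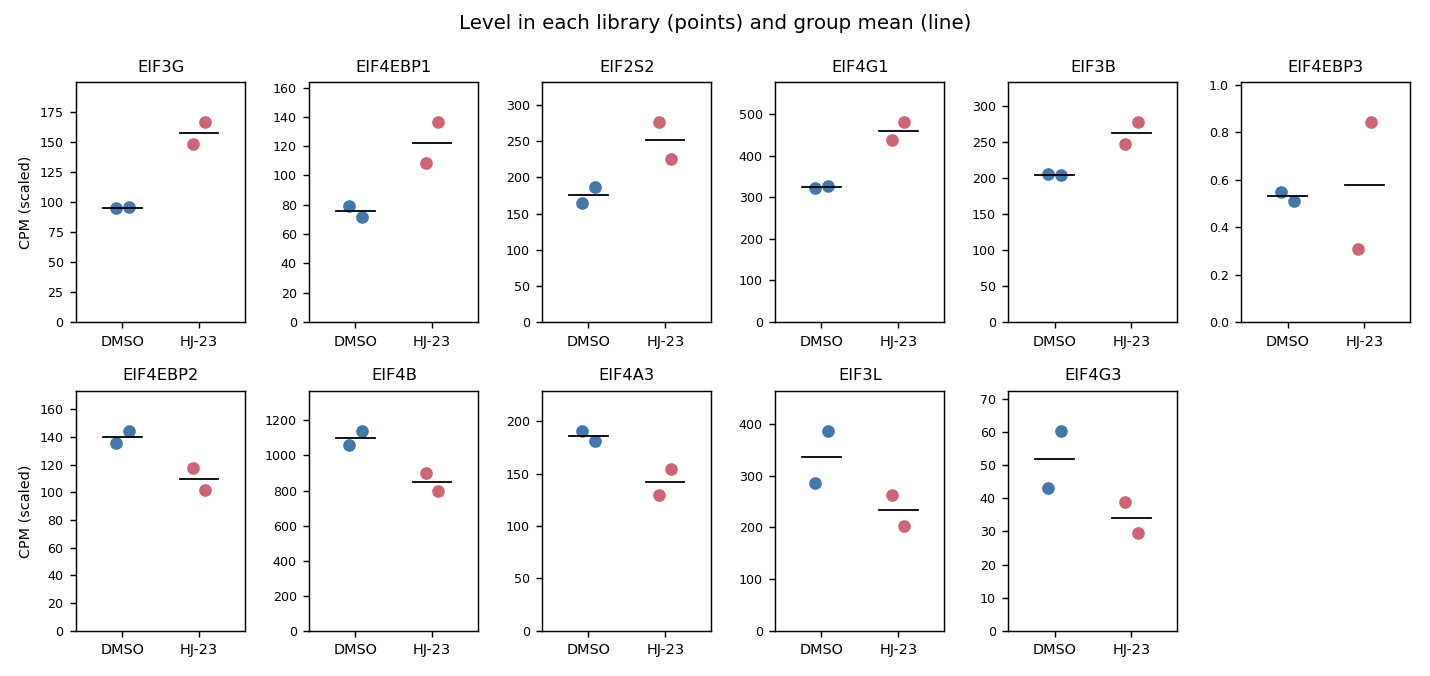
Scaled CPM (vertical axis, from 0) of the 9 genes with an unadjusted p below 0.05 and of the 4E-BPs in each library, with the group mean as a line. EIF3G, EIF4EBP1, EIF2S2, EIF4G1 and EIF3B have both HJ-23 points above both DMSO points, EIF4EBP2, EIF4B, EIF4A3, EIF3L and EIF4G3 have them below, and EIF4EBP3 is under 1 CPM with overlapping groups.

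Among the cap-binding and scaffold genes, the paralogs EIF4G1 and EIF4G3 lay on opposite sides of 0. EIF4G1, the main scaffold of eIF4F, was at 322 and 326 CPM in DMSO and at 437 and 480 CPM in HJ-23 (0.50 ± 0.13 log2 units, edgeR adjusted p of 0.299). The DMSO libraries differed little and both HJ-23 libraries were higher. EIF4G3, a less abundant scaffold paralog, was at 43.2 and 60.3 CPM in DMSO and at 39.0 and 29.5 CPM in HJ-23 (-0.60 ± 0.24 log2 units, edgeR adjusted p of 0.405). Its groups did not overlap, but the DMSO libraries differed by 0.48 on the log2 scale and without DMSO replicate 2 the fold change was -0.36. EIF4G2 encodes DAP5, an eIF4G relative without the eIF4E-binding part, and had 294 and 375 CPM in DMSO and 317 and 235 in HJ-23, with overlapping groups. It had the highest level per length of this role group (534 in DMSO with the median transcript length, but 120 with the longest, where EIF4G1 was at 139).

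EIF4E, the cap-binding protein itself, was at 77.6 and 79.4 CPM in DMSO and at 73.8 and 71.8 CPM in HJ-23. Its groups did not overlap, although the mean log2 fold change was only -0.11 (SE 0.13). EIF4E2, a cap-binding paralog that can repress translation, was also lower in both HJ-23 libraries (65.3 and 65.7 CPM against 56.2 and 62.5), and EIF4E3 overlapped between groups. EIF4E1B had 15 and 4 counts in DMSO and 10 and 18 in HJ-23.

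The eIF4A helicases and their cofactors had log2 fold changes from -0.39 to 0.11. EIF4B, a cofactor that stimulates eIF4A, had the highest CPM of all members, 1058 and 1139 in DMSO and 903 and 796 in HJ-23 (-0.37 ± 0.14 log2 units, edgeR adjusted p of 0.396). EIF4A3, the helicase of the exon junction complex rather than of initiation, was at 191 and 181 CPM in DMSO and at 130 and 154 CPM in HJ-23 (-0.39 ± 0.15 log2 units, edgeR adjusted p of 0.397). In both genes every HJ-23 library was below every DMSO library. Of the initiation helicases, EIF4A1 was at 306 and 309 CPM in DMSO and 260 and 323 in HJ-23. EIF4A2 was at 361 and 356 CPM in DMSO and 382 and 391 in HJ-23, higher without overlap (0.11 ± 0.13 log2 units). The readthrough gene SENP3-EIF4A1, which overlaps EIF4A1, was at 77.4 and 86.5 CPM in DMSO and at 142 and 124 CPM in HJ-23 (0.70 ± 0.15 log2 units). It did not pass with edgeR (adjusted p = 0.233) and passed with DESeq2 (adjusted p = 0.0171). Summed with it, EIF4A1 was at 383 and 396 CPM in DMSO and 402 and 447 CPM in HJ-23, so that the groups overlapped for EIF4A1 alone and not for the sum, and the EIF4A1 value is uncertain. EIF4H, a relative of EIF4B, overlapped between groups (574 and 536 CPM against 482 and 591).

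The promoters of several genes of the eIF4 groups, EIF4E and EIF4G1 of the cap complex among them, held the E-box CACGTG, the hexamer bound by MYC and related factors. The windows below show it in capitals with 15 bases on each side, for EIF4E, the cap-binding gene, and for the 3 members of the eIF4 groups with an E-box and an unadjusted p below 0.05. They are upstream of the gene start, 5′ to 3′ on the gene's strand, and come from RefSeq (GRCh38.p14).
EIF4E, chr4:98929185-98929220, minus strand: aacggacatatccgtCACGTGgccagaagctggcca
EIF4E, chr4:98929338-98929373, minus strand: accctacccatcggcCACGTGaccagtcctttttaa
EIF4G1, chr3:184314447-184314482, plus strand: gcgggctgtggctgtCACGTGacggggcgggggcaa
EIF4G1, chr3:184314524-184314559, plus strand: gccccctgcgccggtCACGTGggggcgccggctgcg
EIF4B, chr12:53006419-53006454, plus strand: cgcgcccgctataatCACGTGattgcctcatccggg
EIF4A3, chr17:80147229-80147264, minus strand: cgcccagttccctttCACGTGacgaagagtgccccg

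The E-box is a palindrome and reads the same on both strands, and these genes differed in direction, with EIF4G1 higher, EIF4B and EIF4A3 lower and EIF4E near 0. In windows from 250 bases before to 50 after the gene start, CACGTG was found for 11 of the 41 members with an entry (26.8%), for 12.3% of the 11135 tested genes with one, and in 7.26% of all 35116 entries. The other members with it were EIF1B, EIF2B3, EIF3F, EIF3K, EIF4H, EIF4EBP3 and EIF5A2. The letters TGATGNAA, which resemble the element bound by ATF4 with C/EBP proteins, were searched on both strands and found for 1 member, EIF4E3 (2.44% of members, 2.78% of tested genes and 3.62% of all entries). EIF2S2, EIF3A, EIF3CL, EIF3E, EIF3G, EIF3H, EIF3L and EIF4EBP1 had no entry. A match describes the letters in the window only.

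The subunits of eIF3 did not share a direction. Of 14 genes, 7 had positive and 7 negative fold changes, or 6 and 7 with the near-identical EIF3C and EIF3CL taken as 1. EIF3G, an RNA-binding subunit, was at 95.2 and 95.5 CPM in DMSO and at 148 and 166 CPM in HJ-23. Its DMSO libraries were nearly equal, and both HJ-23 libraries were higher. The mean went from 95.3 ± 0.23 to 157.2 ± 12.9 CPM (SD, n = 2). The difference was 0.72 ± 0.14 log2 units (edgeR adjusted p of 0.218), and it ranged from 0.61 to 0.78 when 1 library was left out. EIF3B was at 205 and 204 CPM in DMSO and at 247 and 277 CPM in HJ-23 (0.36 ± 0.14 log2 units, edgeR adjusted p of 0.390). EIF3C and its near-identical copy EIF3CL, whose reads cannot be told apart with certainty, had log2 fold changes of 0.24 and 0.25 and are 1 observation rather than 2. Taken so, 11 members in place of 12 were higher without overlap, beside 13 lower. EIF3I was at 172 and 166 CPM in DMSO and 173 and 213 in HJ-23.

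EIF3L had the lowest fold change of the complex. It was at 286 and 386 CPM in DMSO and at 264 and 203 CPM in HJ-23 (-0.53 ± 0.21 log2 units, edgeR adjusted p of 0.405). The groups did not overlap, but the gap between them was smaller than the spread of the DMSO libraries, and without DMSO replicate 2 the value was -0.32. EIF3D, a cap-binding subunit used by some mRNAs, was at 236 and 265 CPM in DMSO and 228 and 225 in HJ-23. EIF3A, the largest subunit, showed no order by group, with 371 and 610 CPM in DMSO and 531 and 359 in HJ-23. EIF3E, a subunit also known from the mouse mammary tumour virus integration site INT6, had the highest level per length of eIF3 (813 in DMSO with the median transcript length, 741 with the longest) and overlapping groups (634 and 581 CPM against 594 and 465). EIF3F, EIF3H, EIF3J, EIF3K and EIF3M overlapped too, with log2 fold changes between -0.15 and 0.09.

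Delivery of the initiator tRNA is the task of eIF2, and the genes of its beta and gamma subunits gave different values. EIF2S2 (beta) was at 164 and 187 CPM in DMSO and at 276 and 226 CPM in HJ-23, and both HJ-23 libraries were above both DMSO libraries (0.52 ± 0.16 log2 units, edgeR adjusted p of 0.335). EIF2S3 (gamma, the GTP-binding subunit) was at 306 and 326 CPM in DMSO and at 327 and 283 CPM in HJ-23, a log2 fold change of -0.05 (SE 0.14) that was 0.13 with the correction for GC content and length and 0.03 without HJ-23 replicate 2. EIF2A and EIF2D, which can bring initiator tRNA to ribosomes without eIF2, overlapped between groups, with fold changes of -0.07 and 0.01. Whether EIF2S2 and EIF2S3 differed from each other in their response was not tested.

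The 5 genes of eIF2B, the exchange factor that reloads eIF2 with GTP, had fold changes from -0.33 to 0.24. Their median was -0.07, but it was 0.06 without DMSO replicate 2, -0.17 without DMSO replicate 1 and -0.14 with the correction for GC content and length, so no direction is given for the complex. EIF2B2 was at 29.6 and 36.0 CPM in DMSO and at 24.4 and 27.9 CPM in HJ-23 (-0.33 ± 0.18 log2 units, edgeR adjusted p of 0.506), and without DMSO replicate 2 its value was -0.20. EIF2B5, the catalytic epsilon subunit, was at 63.3 and 65.2 CPM in DMSO and 54.6 and 61.6 in HJ-23. Those were the 2 genes of the complex whose groups did not overlap, both lower in HJ-23. EIF2B1, the alpha subunit, was at 32.2 and 33.4 CPM against 35.3 and 32.7, and EIF2B3 and EIF2B4 overlapped as well.

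Start codon selection depends on eIF1 and eIF1A. EIF1 was at 607 and 554 CPM in DMSO and at 666 and 904 CPM in HJ-23 (0.44 ± 0.18 log2 units, edgeR adjusted p of 0.429). Both HJ-23 libraries were above DMSO, but they differed by 0.44 on the log2 scale from each other, and without HJ-23 replicate 2 the fold change was 0.17. EIF1AX, the eIF1A gene on the X chromosome, was at 90.6 and 90.0 CPM in DMSO and 101 and 85.8 in HJ-23. EIF1B, a close paralog of EIF1, had a log2 fold change of 0.05, and EIF1AD one of -0.25 (52.7 and 49.8 CPM against 42.0 and 44.4).

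The late factors gave no common direction. EIF5A, the hypusine-bearing factor that helps ribosomes through difficult peptide bonds, was at 336 and 286 CPM in DMSO and at 334 and 463 CPM in HJ-23 (0.36 ± 0.20 log2 units, edgeR adjusted p of 0.499). Its groups overlapped, and without HJ-23 replicate 2 the value was 0.08. EIF5A2, its paralog, was at 37.1 and 38.0 CPM in DMSO and at 35.03 and 22.3 CPM in HJ-23, and 1 library carried most of that difference, since the value went from -0.39 to -0.13 without HJ-23 replicate 2. EIF5AL1, a retrogene copy of EIF5A, was at 1.16 to 1.71 CPM, where reads of EIF5A can stray. EIF5, which makes eIF2 hydrolyse its GTP, EIF5B, which joins the subunits, and EIF6, which keeps the large subunit apart, all overlapped between groups.

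For 31 of the 49 members the larger distance between 2 libraries of a group exceeded the difference between the groups. No such count was made over all genes. The median of that within-group distance was 0.29 on the log2 scale, against a median absolute fold change of 0.19; over all genes these were 0.31 and 0.22. EIF5B and EIF3A are examples with wide spread. EIF5B was at 71.5 and 126 CPM in DMSO and at 117 and 65.3 CPM in HJ-23, so that DMSO replicate 1 resembled HJ-23 replicate 2 and DMSO replicate 2 resembled HJ-23 replicate 1. EIF2A followed the same order, with 83.4 and 116 CPM in DMSO and 114 and 75.4 in HJ-23. The difference between replicates 1 and 2 had opposite signs in the groups for 32 of the 49 members and for 66.3% of all genes tested.

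**Figure D3:**
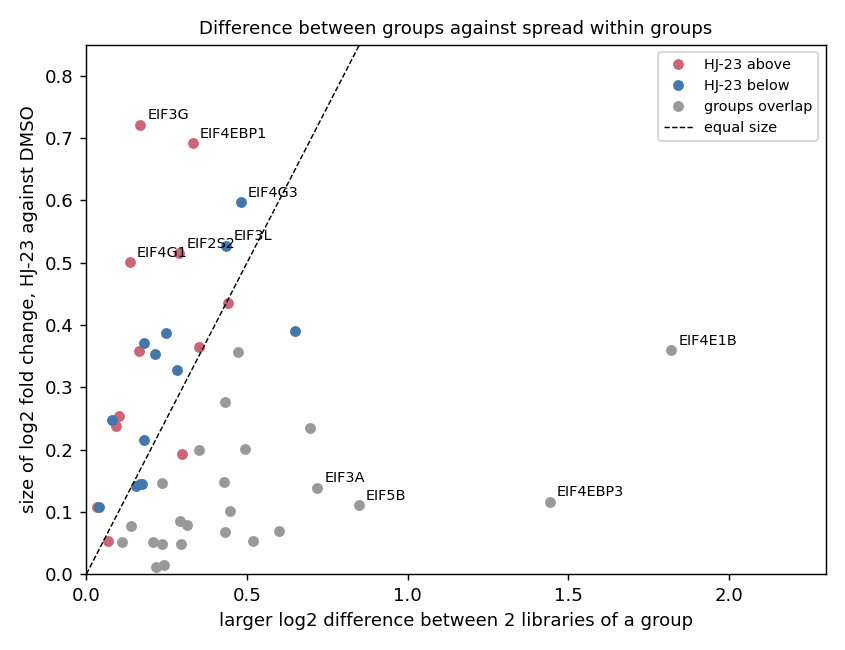
Size of the log2 fold change (vertical axis) against the larger log2 difference between 2 libraries of 1 group (horizontal axis) for the 49 genes, with a dashed line where they are equal; colours give the order of the groups. EIF3G, EIF4EBP1, EIF4G1 and EIF2S2 lie well above the line, EIF3L and EIF4G3 close to it, and EIF3A, EIF5B and the low-count genes EIF4EBP3 and EIF4E1B far to its right.

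Fold changes were higher in the GC-rich members. Over the 49 genes, Spearman's rho between the log2 fold change and the GC content of the transcripts was 0.38, and over all genes tested with a GC value it was 0.37; genes of a library share its composition, so both are descriptions. The 7 members with a GC content of 55% or more all had positive fold changes, with a median of 0.36, while 3683 of 5185 such genes in the whole table were positive, with a median of 0.17. Of the 15 members under 45% GC, 5 were positive, with a median of -0.11, while 1300 of 4058 such genes in the whole table were positive, with a median of -0.13. Among the 7 GC-rich members, EIF4E1B and EIF4EBP3 had under 30 counts in every library, and EIF4EBP3 was negative without HJ-23 replicate 2 and with the correction (-0.79 and -0.04). Leaving both out, 5 of 5 were positive, with a median of 0.50. Low-count genes were not left out of the 5185, so this count has no like share over all genes. The GC bounds were chosen after the values were seen. EIF4EBP1 (62.0% GC), EIF3G (60.02%) and EIF4G1 (56.9%) are among the GC-rich members, and with the correction for GC content and length their log2 fold changes were 0.48, 0.54 and 0.37. EIF2S2, with 45.2% GC, went from 0.52 to 0.65 under the same correction. None of the 49 passed with it, and the smallest adjusted p was that of EIF2S2 (0.0819, edgeR).

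**Figure D4:**
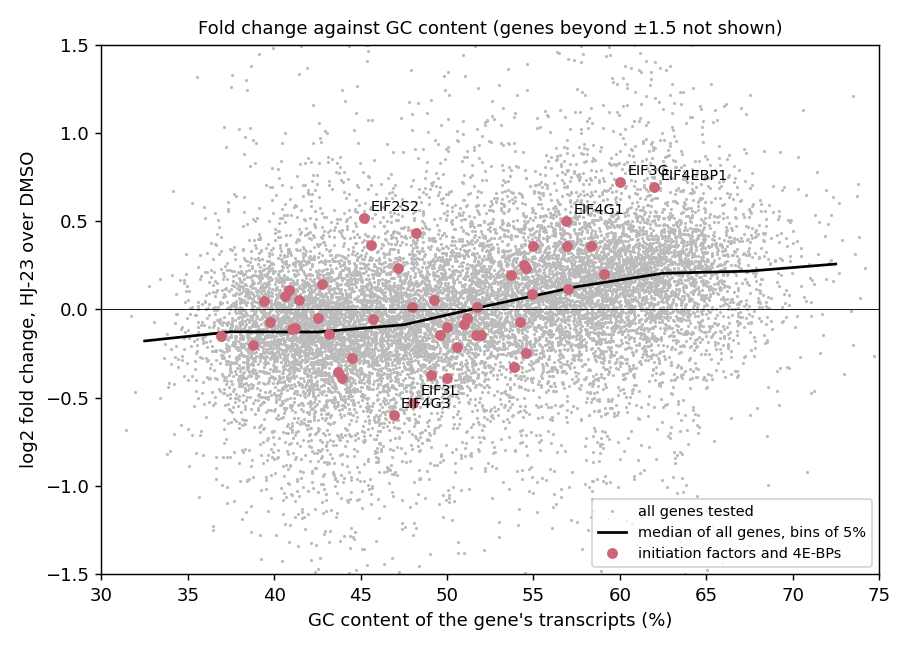
Log2 fold change of HJ-23 over DMSO (vertical axis) against the GC content of each gene's transcripts in percent (horizontal axis), with all genes tested in grey, their median per 5% of GC as a line and the 49 genes in red. The line climbs with GC content, EIF3G, EIF4EBP1 and EIF4G1 sit above it on the right, EIF2S2 above it at 45.2% GC, and EIF4G3 and EIF3L below it.

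Of the 38 other genes of the pathway that were listed, 37 were tested, and 0 passed over all genes with edgeR or DESeq2. At an unadjusted p below 0.05, 3 were higher (6.77% of all genes were) and 3 lower (5.25% of all genes), and the median log2 fold change was 0.02. The number higher fell without DMSO replicate 1, DMSO replicate 2 or HJ-23 replicate 2 and rose without HJ-23 replicate 1. The count over all genes moved the same way each time. The number lower fell without either DMSO library, rose without HJ-23 replicate 1 and stayed the same without HJ-23 replicate 2. Groups did not overlap for 26 of the 37 tested (70.3%, against 46.0% of all genes). HJ-23 was above for 16 of these (24.8% of all genes) and below for 10 (21.2% of all genes). In the list of mTORC1 and the kinases of the cap complex, 9 of 13 were positive, while 7178 of the 14062 genes tested were. The list includes genes that restrain mTORC1, so this count gives no direction for the complex. Several of the positive genes were GC-rich, such as MLST8 (62.8% GC), AKT1S1 (64.3%) and MKNK2 (62.2%). With the correction for GC content and length, these went from 0.52, 0.39 and 0.39 to 0.30, 0.17 and 0.17. RHEB and MTOR, also positive, rose with it, from 0.15 to 0.27 and from 0.02 to 0.11. TSC1 and TSC2, partners in the complex that restrains mTORC1, lay on opposite sides. TSC1 was at 41.3 and 54.1 CPM in DMSO and at 34.6 and 26.6 CPM in HJ-23 (-0.64 ± 0.22 log2 units, edgeR adjusted p of 0.362), and TSC2 at 59.1 in both DMSO libraries and at 74.7 and 77.7 CPM in HJ-23 (0.37 ± 0.14 log2 units, edgeR adjusted p of 0.389), which was 0.20 with the correction for GC content and length. MTOR itself was at 74.2 and 85.3 CPM in DMSO and at 81.4 and 80.6 CPM in HJ-23.

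Among the poly(A)-binding proteins and their partners, PAIP2B, an inhibitor of the poly(A)-binding protein, was at 62.1 and 64.2 CPM in DMSO and at 45.6 and 39.5 CPM in HJ-23 (-0.57 ± 0.16 log2 units, edgeR adjusted p of 0.309), with -0.34 under the correction for GC content and length. PABPC4 was at 211 and 202 CPM in DMSO and 237 and 272 in HJ-23, a log2 fold change of 0.30 that was 0.18 without HJ-23 replicate 2. Of the elongation and termination genes, EEF1A1, which carries aminoacyl-tRNA to the ribosome, was at 7724 and 11688 CPM in DMSO and at 6685 and 5769 CPM in HJ-23 (-0.64 ± 0.23 log2 units, edgeR adjusted p of 0.377). Both HJ-23 libraries were below DMSO, but without DMSO replicate 2 the value was -0.33. ETF1, the release factor eRF1, was at 88.7 and 106 CPM in DMSO and at 130 and 122 CPM in HJ-23 (0.37 ± 0.15 log2 units).

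Of the other initiation and recycling factors, GIGYF2, a partner of EIF4E2 in repression, had a log2 fold change of -0.40 (SE 0.20), which was -0.24 when HJ-23 replicate 2 was left out and -0.63 when replicate 1 of that group was. IMPACT, an inhibitor of the kinase GCN2, had one of 0.28 (SE 0.17), which was 0.43 with the correction for GC content and length and 0.17 without HJ-23 replicate 1. The enzymes that form hypusine on eIF5A differed in sign. DOHH was at 14.5 and 13.1 CPM in DMSO and 16.6 and 23.2 in HJ-23, with a fold change of 0.52 that was 0.23 without HJ-23 replicate 2, and DHPS was at 66.9 and 58.6 CPM against 58.3 and 48.6.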

How the data were processed

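The authors deposited 1 table of counts per library, unnormalized as the values show, for 20263 Ensembl identifiers. RSEM, HISAT2, Trimmomatic, FastQC and bedtools appear in the submitters' processing notes with no version. The genome build, annotation and strand setting were not given in the sources used, and overlapping or antisense genes therefore cannot be separated. Symbols came from a gene name table (20148 identifiers) and GENCODE 29 (76 more), which also gave transcript lengths and GC content (medians over a gene's transcripts).

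Counts were fitted with edgeR 4.0.16 (R 4.3.3): filterByExpr (14062 genes), TMM, robust dispersions, its quasi-likelihood test (legacy setting), and Benjamini-Hochberg adjustment over all genes. SE is the log2 fold change over the square root of F. The fit was also run on simulated counts that held no GC effect and no outlying library, so that run does not cover these traits of the data. Alternatives were DESeq2 1.42.0, other scalings and filters, the replicate block, GC and length offsets (splines with 4 degrees of freedom per library), and each library left out. Members and lists were chosen with earlier results of these data known. Named in full were the 4E-BPs, the 8 highest and 8 lowest members averaging 5 CPM or more, and per role group the smallest p and highest level per length, plus 2 genes per pathway list; other genes named were chosen after their values were seen. Libraries of a group differed beyond counting noise (chi-square per degree of freedom 36.5 for DMSO and 70.7 for HJ-23).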

Additional observations from a re-analysis of the deposited data

How the results depend on the processing

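The fit rested on 2 residual degrees of freedom. When 1 library was left out, the lone library of its group was taken to vary like the others. Under the other scalings, filters, block, corrections and left-out libraries, 0 initiation factor genes passed over all genes. DESeq2 called 1, higher. At an unadjusted p below 0.05, 1 to 8 were higher and 0 to 6 lower with 1 library left out, and 1 was lower with total counts only. The replicate numbers do not mark shared cultures in the labels (deviations of DMSO 1 and HJ-23 1 correlated at -0.18). With the replicate block 2 were lower and 4 higher, and over all genes the calls went from 12 to 294, while 0 pathway genes were higher at an unadjusted p; with the GC and length correction and the block, 0 members were lower. A crossed pairing (DMSO replicate 1 with HJ-23 replicate 2, and the reverse) was added after the data were seen. It called 4 members higher and 2 lower over all genes and 7 lower at an unadjusted p. It also called 3 pathway genes lower, and 966 genes in all. No label gives this pairing, and it follows the replicate order of these same values (opposite signs for 66.3% of all genes). Its calls are therefore no separate support.

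The median log2 fold change of the members was -0.05, and 0.045 with the GC and length correction, 0.040 with the correction and the block, and from -0.039 to 0.035 with 1 library left out; the cause was not tested. Of 390 alternative values of 30 named genes, 7 had the other sign, all in genes near 0: EIF2B1 without HJ-23 replicate 1 (-0.0243, range with 1 library left out -0.0243 to 0.0820), EIF2S3 with the GC and length correction (0.13, and 0.13 with the block) and without HJ-23 replicate 2 (0.0250, range -0.18 to 0.0250), and EIF4EBP3 with the correction (-0.0380, and -0.13 with the block) and without HJ-23 replicate 2 (-0.79, range -0.79 to 0.65). Levels per length in DMSO depend on the transcript taken: with the longest in place of the median they were 605 in place of 489 for EIF1, 268 in place of 658 for EIF2S3, 32.1 in place of 42.1 for EIF2B1, 741 in place of 813 for EIF3E, 120 in place of 534 for EIF4G2, 643 in place of 1181 for EIF4B, 180.2 in place of 83.4 for EIF4EBP1, and 499.8 in place of 234 for EIF5A.
The search for eIF4E-binding letters in the members' proteins was not run.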
